A study of Mus musculus with 9 samples.

Results

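The 10 transcripts by which mouse blood monocytes are commonly told apart were followed through the blood and joint profiles of an arthritis study: Ly6c2, Ccr2, F13a1 and Lyz2, linked with classical monocytes, Cx3cr1, Treml4, Ace and Ear2, linked with nonclassical ones, and Csf1r and Ms4a6c, which both kinds carry. They are 10 of the 23499 genes in the expression tables, were chosen by name, and all 10 were found. Blood of female 129SvE mice was profiled by Seq-Well, a method that captures RNA on barcoded beads in small wells; there were 4 healthy mice, labelled disease stage 0, and 5 mice of a rheumatoid arthritis model, labelled stage 1.5 (mice 1 and 4), 2 (mouse 3), 1.5 to 2 (mouse 5) and 2 to 2.5 (mouse 6). The agent that induced arthritis and the ages of the mice cannot be read from the labels, and the tissue is labelled as both blood and PBMC. The joint profiles match no sample here and are given pooled.

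Classical monocytes leave the bone marrow through the chemokine receptor Ccr2 and enter inflamed tissue, where they can become macrophages or dendritic cells. Nonclassical monocytes patrol the vessel wall, depend on the fractalkine receptor Cx3cr1 and on the transcription factor Nr4a1, and arise from classical ones. Both carry the receptor Csf1r. Ly6c2 and Lyz2 are not monocyte genes alone, since neutrophils and their precursors also carry them.

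Each profile, here called a column, has a class name given by the authors, and no class is named for monocytes. The 4310 blood columns comprised 1905 granulocyte, 1301 B, 450 CD4 T, 331 foxP3 T, 193 myeloid progenitor and 122 myeloid dendritic (CD8a-) columns, and 8 columns in 3 small classes, 2 of them under the name of a bone marrow macrophage treated with LPS. Healthy mice gave 26 to 201 columns and arthritic mice 502 to 1027, with column totals from 6052 to 51601 (median 10909). The values are whole-number signal, and a column may hold more than 1 cell. Of the blood columns, 1313 were identical to another and 734 were identical to a column of another mouse, while 1 barcode occurred in more than 1 mouse. Results that rest on them are therefore given with and without such columns where these change a call. Hemoglobin transcripts took 0.63% to 55.0% of a mouse's signal, and healthy mouse 2 had 5 granulocyte columns of 201. In bulk sums of this kind, fewer cells of a type and less RNA per cell cannot be told apart.

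The member genes lie on different chromosomes, apart from Ccr2 (GRCm38, chromosome 9, 124101950 to 124113557, plus strand) and Cx3cr1 (chromosome 9, 119901616 to 120069879, minus strand). The sequences before the start sites of 4 members are shown because F13a1 and Ms4a6c varied together over columns and Treml4 and Ear2 varied little with them, as described below. They are from RefSeq (GRCm38.p6), 5′ to 3′ on the gene's strand, ending at the base before the annotated gene. Capitals mark GAGGAA, a core of sites for PU.1 (a myeloid transcription factor), or GCAAT, part of the site for C/EBP factors, on either strand.
F13a1, chr13:37050245-37050494, minus strand: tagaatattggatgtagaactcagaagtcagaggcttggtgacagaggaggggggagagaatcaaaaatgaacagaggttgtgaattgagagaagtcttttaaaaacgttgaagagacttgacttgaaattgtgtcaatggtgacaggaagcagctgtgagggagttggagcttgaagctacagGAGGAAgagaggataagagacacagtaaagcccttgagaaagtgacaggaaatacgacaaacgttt
Ms4a6c, chr19:11469118-11469365, plus strand: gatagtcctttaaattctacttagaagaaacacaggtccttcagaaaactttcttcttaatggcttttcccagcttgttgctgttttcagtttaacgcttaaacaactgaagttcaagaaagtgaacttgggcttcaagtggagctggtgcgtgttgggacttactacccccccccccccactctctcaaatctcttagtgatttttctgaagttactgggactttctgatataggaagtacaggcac
Treml4, chr17:48264045-48264294, plus strand: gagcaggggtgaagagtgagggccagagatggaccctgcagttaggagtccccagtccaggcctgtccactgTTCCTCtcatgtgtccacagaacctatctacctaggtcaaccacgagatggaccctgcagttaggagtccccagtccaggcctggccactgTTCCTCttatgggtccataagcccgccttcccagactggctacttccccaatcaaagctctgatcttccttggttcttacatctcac
Ear2, chr14:44102404-44102653, plus strand: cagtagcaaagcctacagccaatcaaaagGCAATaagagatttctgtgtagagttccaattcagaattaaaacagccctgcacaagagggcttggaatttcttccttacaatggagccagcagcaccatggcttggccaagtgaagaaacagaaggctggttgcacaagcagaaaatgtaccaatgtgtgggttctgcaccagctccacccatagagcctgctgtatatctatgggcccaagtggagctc
In the 250 bases before the first listed start, GAGGAA or its reverse complement TTCCTC was found in 4 of the 9 members with an entry that was read (Ly6c2, F13a1, Treml4 and Ace), and in 23.3% of all 32851 such windows. GCAAT or ATTGC was found in 2 of 9 (Cx3cr1 and Ear2) and in 23.1% of all windows. AAGGTCA or TGACCTT, a site for Nr4a factors, was found in 0 of 9 and in 4.08% of all windows. No matches in the printed sequences overlapped, and these matches are letters in a window, not shown sites.

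Some members have near copies, which matters for reads taken near the polyA tail. Of the 50-base windows in the last 300 bases of the protein-coding transcripts (GENCODE M21), 38.2% of those of Ear2 also occurred in another gene, chiefly Ear1 and Ear10, 23.3% of those of Ly6c2, chiefly in Ly6c1, 21.9% of those of Lyz2, in Lyz1, and 9.16% of those of Ms4a6c, in Ms4a6b. For the other 6 members no window was shared. Values of Ear2, Ly6c2, Lyz2 and Ms4a6c are uncertain to that extent.

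Across blood, the myeloid dendritic class had the highest pooled level of 7 of the 10 members, and the granulocyte class had that of the other 3, Ly6c2, F13a1 and Lyz2. Levels are given as SPM, the signal of a gene per 1000000 of all signal in the class, and a class against another is a description, since the authors' names came from the same profiles by a method the labels leave unstated. These levels are compared between classes for 1 gene at a time, not between genes.

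Ccr2, the receptor that draws monocytes to CCL2, reached 776 ± 151 SPM in myeloid dendritic columns (SD over 4 mice with at least 5 columns, all arthritic), from 553 to 886. In granulocyte columns it was 366 ± 314 (SD, n = 9 mice), from 82.8 to 1085, so the ranges overlapped. In the B, CD4 T and foxP3 T classes its means were 69.5, 32.6 and 79.6. Ms4a6c, a membrane protein of the MS4A family, was also highest in these 2 classes, with 864 ± 212 in myeloid dendritic columns (n = 4) and 365 ± 290 in granulocyte columns (n = 9). Csf1r, the receptor for CSF1 and IL-34, was at 136 ± 46.0 (n = 4) and 53.3 ± 39.4 (n = 9).

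Cx3cr1 was at 119.5 ± 18.6 SPM in myeloid dendritic columns (SD, n = 4 mice) and 45.1 ± 39.9 in granulocyte columns (n = 9). Ace, a peptidase that converts angiotensin, was at 62.4 ± 30.4 and 15.4 ± 14.5. Treml4, a receptor of the TREM family, was at 29.4 ± 11.7 and 6.32 ± 5.99, and here the ranges over mice did not overlap (17.1 to 40.2 against 0 to 16.7). The 17.1, of arthritic mouse 3, rests on 3 signal in 1 of its 17 columns, so this narrow gap carries little weight. For the other 9 members the ranges over mice in these classes overlapped. Ear2, an eosinophil-associated ribonuclease, stood at 30.1 ± 7.02 and 30.1 ± 14.8.

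Ly6c2, a GPI-anchored surface antigen, was at 442 ± 239 SPM in granulocyte columns (SD, n = 9 mice), 407 ± 123 in myeloid dendritic columns (n = 4) and 213 ± 94.4 in myeloid progenitor columns (n = 4). F13a1, the A subunit of coagulation factor XIII, was at 268 ± 184, 223 ± 101 and 84.3 ± 53.8. Lyz2, lysozyme, was at 10321 ± 5312 in granulocyte columns and 8906 ± 1920 in myeloid dendritic columns, and it ranged from 194 to 1605 over the mice of the other 4 classes, which lay below both. These granulocyte means include the 4 healthy mice, whereas the myeloid dendritic and progenitor means rest on arthritic mice only. Over the 5 arthritic mice alone, granulocyte columns had Ly6c2 at 576 ± 236, F13a1 at 276 ± 217 and Lyz2 at 12675 ± 5431. Ccr2 was then at 379 ± 401 and Ms4a6c at 389 ± 389.

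**Figure D1:**
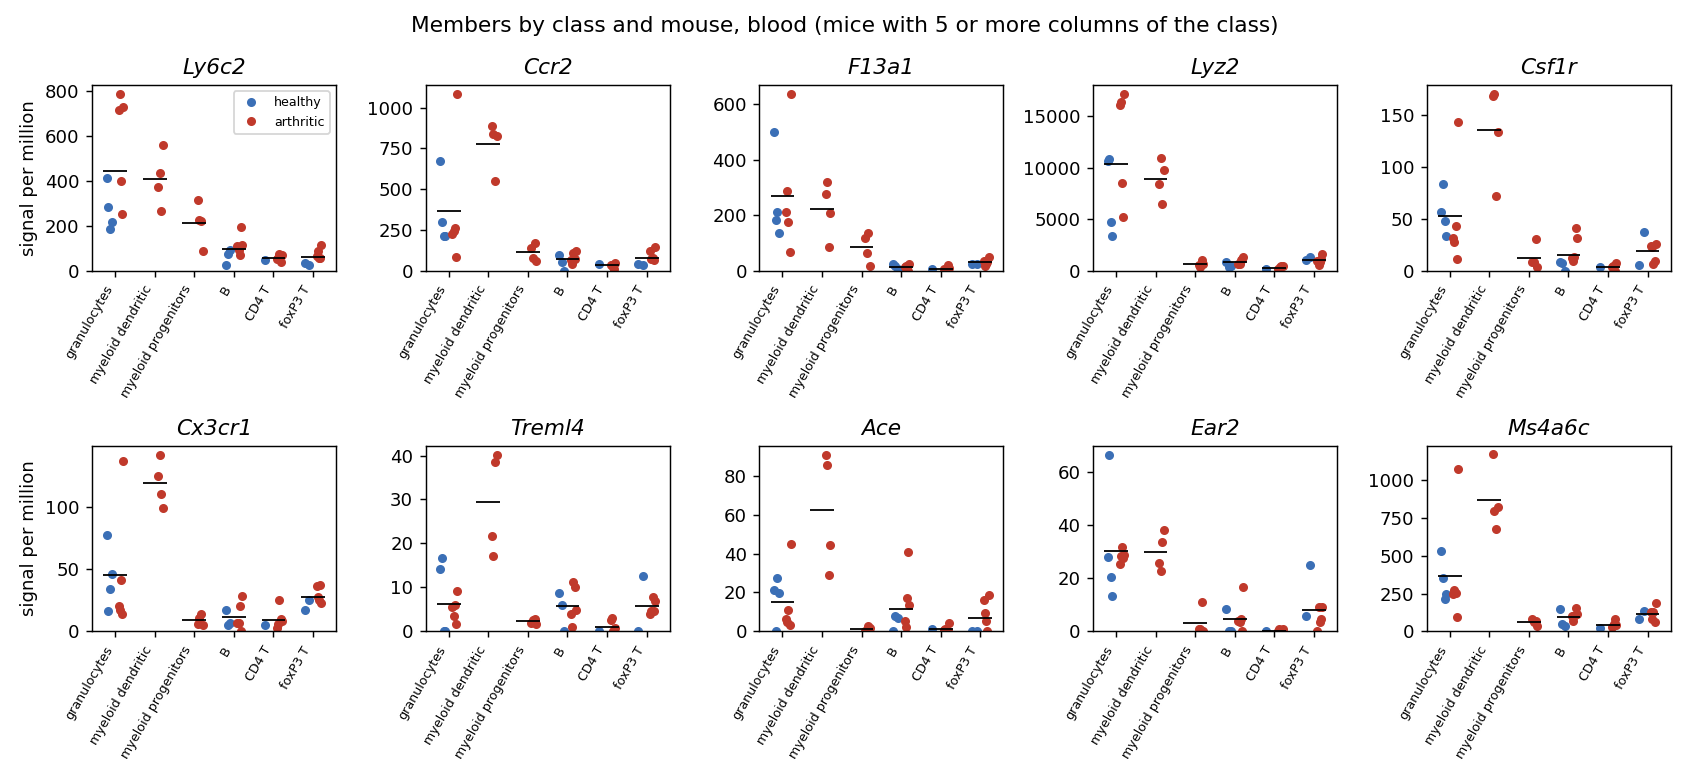
SPM of each member (y axis) in 6 blood classes (x axis); each point is 1 mouse with at least 5 columns of the class, blue healthy and red arthritic, and the bar is the mean over mice. Myeloid dendritic columns carry the highest mean of Ccr2, Csf1r, Cx3cr1, Treml4, Ace and Ms4a6c, and 1 arthritic mouse stands above the other granulocyte values of Ccr2 (1085) and Ms4a6c (1072).

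Lyz2 had signal in most columns of every class. Ccr2 had signal in 95.9% of myeloid dendritic columns and in 28.9% of CD4 T columns, the lowest share of the 6 classes, at median column totals of 9067 and 8448. With each column thinned to 5000 signal, these shares were 88.5% and 16.2%. Treml4 had signal in 18.0% and 2.00% (11.5% and 0.667% after thinning), and Lyz2 in 100% and 71.8% (100% and 55.1%). T cells should lack Lyz2 and Treml4, and whether their signal in CD4 T columns came from free RNA or from other cells in a column was not tested.

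Most member signal in blood did not lie in myeloid dendritic columns, which are few. They made up 2.83% of blood columns and 2.14% of all blood signal, and held 9.09% of all Ccr2 signal, 9.35% of Ms4a6c, 10.8% of Csf1r and 14.6% of Treml4. Granulocyte columns made up 44.2% of columns and 48.8% of all signal, and held 71.4% of Ccr2 signal, 85.1% of F13a1, 80.2% of Ly6c2, 90.7% of Lyz2, 67.2% of Csf1r and 48.2% of Treml4, the last being near their share of all signal.

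Within the granulocyte class that signal was concentrated in a part of the columns. Ms4a6c was at 0 in 810 of the 1905 columns, above 0 and below 200 SPM in 505, from 200 to below 400 in 95, from 400 to below 800 in 97, and at 800 or more in 398. A value of 400 was set after the values were seen, to describe both ends of this range; it marks no cell type, 192 columns lie within a factor of 2 of it, and no test was made across it. The 495 columns at or above 400 held 58.9% of all Ccr2 signal in blood, 70.9% of F13a1 and 53.8% of Cx3cr1, and were 11.5% of blood columns with 9.32% of all signal. They also held 60.2% of Ms4a6c, a share that is raised by the choice of columns itself.

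Pooled over columns, Ccr2 was at 1180.4 SPM in the 495 columns and 59.3 in the other 1410. F13a1 was at 934 and 44.2, Csf1r at 147 and 12.3, Cx3cr1 at 145 and 7.15, and Ace at 40.0 and 2.69. Ly6c2 and Lyz2 differed less, with 1118 and 380 for Ly6c2 and 18492 and 9674 for Lyz2. Treml4 was at 10.4 and 3.10, and Ear2 at 23.2 and 29.3, the 1 member with the lower value in the high-Ms4a6c columns.

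Of the genes listed for classical monocytes, members included, 12 of 14 were higher in the high-Ms4a6c columns, as were 14 of the 16 measured for nonclassical monocytes and 70.5% of all 21682 genes with signal in the class. Lists of other lineages were higher too, with 7 of 7 NK cell, 6 of 6 plasmacytoid dendritic cell and 6 of 7 T cell markers. For B cells it was 4 of 7 and for plasma cells 2 of 6. Fn1 (fibronectin) was at 363 and 18.1 SPM, Ccl9 (a chemokine) at 319 and 15.4, and Klf4, a transcription factor of monocyte differentiation, at 376 and 20.5. Nr4a1 was at 371 and 47.6. Of the 15 neutrophil markers 13 were lower there, with S100a8 at 11724 and 123199, Camp at 819.5 and 16760.3 and Ngp at 1075 and 18859.6, and Mpo (340.2 and 301) and Csf3r (82.5 and 55.1) were higher. All 8 erythroid markers were lower in the high-Ms4a6c columns. The listed monocyte genes that were lower there were Chil3 (464 and 2016), Hp (755 and 944), Cd36 (14.9 and 51.3) and Ear2. Ear1, which shares windows with Ear2, was at 5.99 and 39.3. Of the 12 conventional dendritic cell markers 10 were higher in the high-Ms4a6c columns, among them Flt3 (21.8 and 2.41) and H2-Ab1 (719 and 130.3), while Zbtb46 (1.16 and 1.50) and Xcr1 (0.386 and 0.82), both with little signal, were lower.

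Over the 1486 distinct granulocyte columns, the correlation of log2(signal per 10000 + 1) with Ms4a6c was 0.89 for Ccr2, 0.85 for F13a1, 0.65 for Cx3cr1, 0.64 for Csf1r, 0.51 for Ly6c2, 0.43 for Ace, 0.34 for Lyz2, 0.13 for Treml4 and -0.03 for Ear2. For S100a9 it was -0.77. The columns share libraries and differ in depth, with a median total of 9273 in high-Ms4a6c columns and 13686 in the rest. Within each of the 5 arthritic mice, taken separately over 199 to 409 distinct columns, the correlation with Ms4a6c ran from 0.77 to 0.91 for Ccr2 and from 0.73 to 0.90 for F13a1, and from 0.09 to 0.62 for Lyz2.

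**Figure D2:**
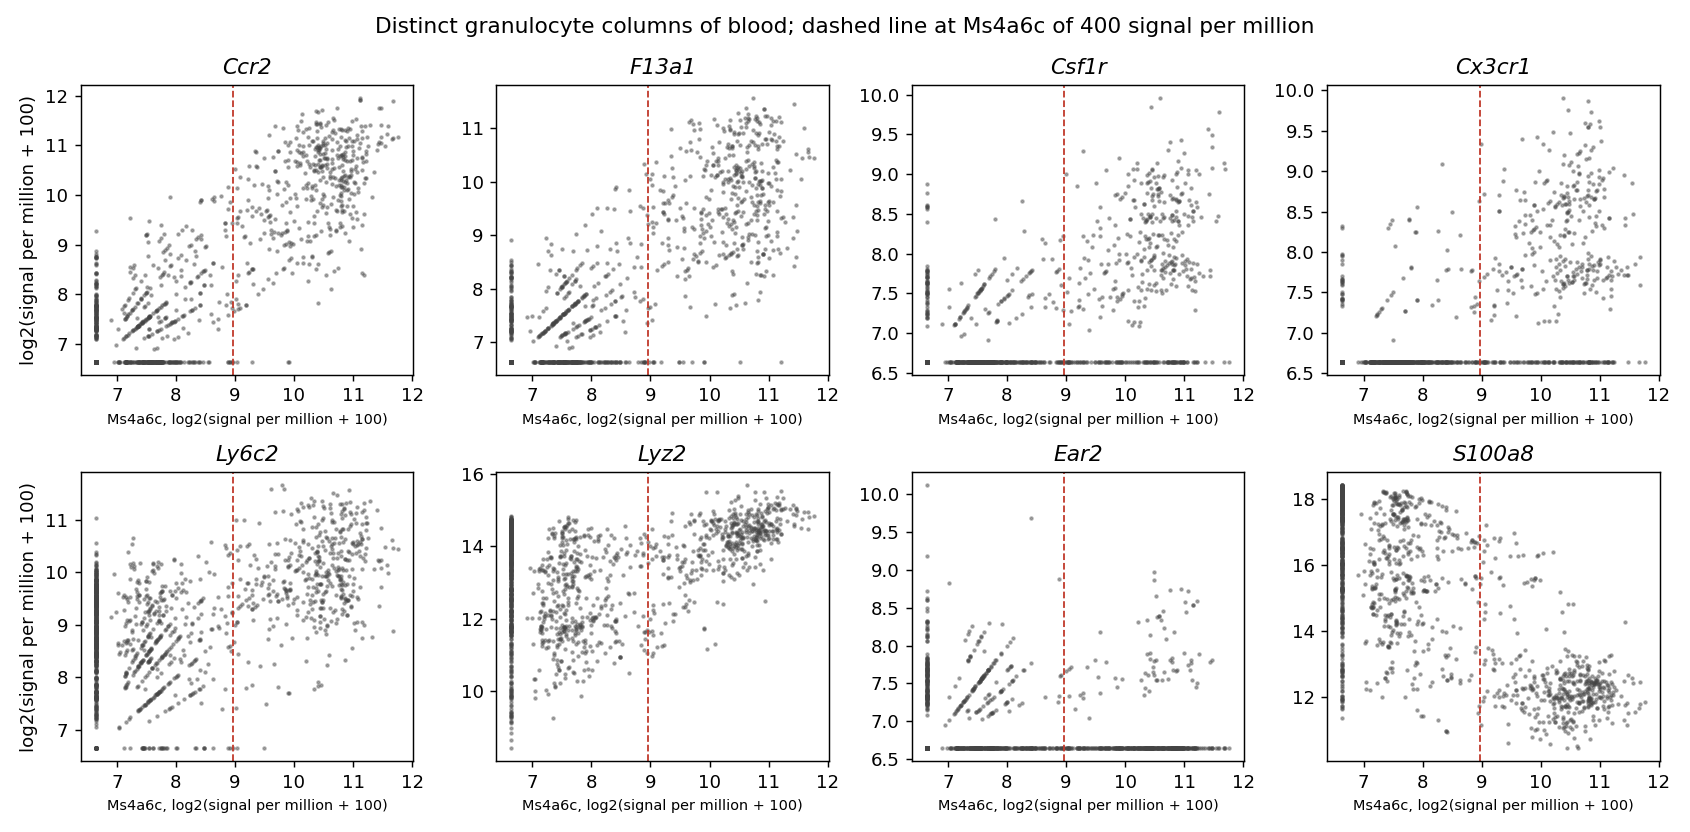
Each point is 1 distinct granulocyte column of blood; the x axis is Ms4a6c and the y axis the named gene, both as log2(SPM + 100), and the dashed line stands at 400 SPM. Ccr2 and F13a1 are higher where Ms4a6c is higher (correlations of 0.89 and 0.85 on the scale given in the text), S100a8 is lower there, and Ear2 shows no trend; the slanted rows of points are columns with 1, 2 or 3 signal.

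The share of granulocyte columns at or above 400 differed between mice without separating the groups. It was 46.2%, 40.0%, 18.2% and 30.0% in healthy mice 1 to 4, on 5 to 20 columns each. In arthritic mice 1, 3, 4, 5 and 6 it was 18.2%, 22.0%, 27.5%, 7.82% and 74.7%. Arthritic mouse 6 was the highest and arthritic mouse 5 the lowest, and the groups overlapped. In high-Ms4a6c columns Ccr2 ranged from 489 to 1382 SPM over the 4 healthy mice and from 790 to 1495 over the 5 arthritic mice. The healthy values rest on 6, 2, 2 and 6 columns, and the arthritic ones on 34 to 186. Of the 49 healthy granulocyte columns, 15 were identical to a column of another mouse.

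The joint granulocyte columns, in a separate table, could be divided in the same way. Of 6487 columns, 977 (15.1%) had Ms4a6c at or above 400 SPM. In these, Ccr2 was at 921 and F13a1 at 1151, against 66.3 and 60.7 in the other 5510, while S100a8 was at 25170 and 110327. Over 4388 distinct joint columns the correlation with Ms4a6c was 0.83 for Ccr2, 0.84 for F13a1 and -0.05 for Ear2. The joint columns are pooled, so no spread over mice can be given.

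Myeloid dendritic columns of blood carried dendritic, classical and nonclassical genes together. The label was checked against 12 conventional dendritic cell markers, of which 11 were highest in this class; H2-Ab1 was at 2243 SPM and Flt3 at 34.5, but Cd209a was at 1.68, with signal in 1.64% of columns. Of the 16 measured genes listed for nonclassical monocytes, 14 were highest here, as were 7 of the 14 listed for classical monocytes, 13 of the 18 listed as shared by mononuclear phagocytes and 8 of the 10 macrophage markers. The share of all genes that were highest in this class was not computed, so these counts cannot show an excess of any list. Genes of other lineages had signal too: S100a8 in 100% of columns, Hbb-bs in 99.2%, Ighm in 93.4% and Trbc2 in 72.1%. Of the 15 neutrophil, 7 B cell, 7 T cell and 8 erythroid markers, 0 were highest here. Of the 6 plasmacytoid dendritic cell markers 3 were, as was 1 of 7 for NK cells, 1 of 6 for basophils and mast cells and 1 of 6 for osteoclasts.

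In the 122 columns Ccr2 ran from 0 to 2097 SPM with a median of 657, Ms4a6c from 0 to 2535 with a median of 756, and Lyz2 from 551 to 19159 with a median of 7786. Ly6c2 ran from 0 to 1257 with a median of 382, and it was at 0 in 9 columns. F13a1 had signal in 77 columns, Csf1r in 82 and Cx3cr1 in 73. Ace had signal in 49 columns, Ear2 in 25 and Treml4 in 22, with a median of 0 for each and at most 4 signal in a column. At this depth 1 signal in a median blood column is worth 91.7 SPM, so a 0 of Treml4, Ace or Ear2 does not show that the transcript was absent.

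Ly6c2 and Ccr2 had signal in nearly every column, so how often they occurred with nonclassical genes says little about an association. F13a1 had signal in 63.1% of columns. All of Ly6c2, Ccr2 and F13a1 had signal in 72 of the 122 columns, and 2 or more of Treml4, Ace, Ear2 and Cx3cr1 in 53. Of these 53, 51 (96.2%) also had 2 or more of Ly6c2, Ccr2 and F13a1, as had 114 of all 122 (93.4%). Treml4 occurred with Ly6c2 in 19 of its 22 columns (86.4%), where Ly6c2 had signal in 92.6% of all. Since a column may hold several cells, signal in 1 column does not place these transcripts in 1 cell.

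Over 95 distinct myeloid dendritic columns, the highest correlations among members were between Ly6c2 and Lyz2 (0.66), Lyz2 and Csf1r (0.62), Ccr2 and Ms4a6c (0.57) and F13a1 and Lyz2 (0.51). Among nonclassical genes, Cx3cr1 with Ace gave 0.36 and Treml4 with Ear2 gave 0.28. Between classical and nonclassical genes, values ran from -0.16 (Ly6c2 with Ace) to 0.43 (Lyz2 with Cx3cr1). Classical genes differed in how they went with dendritic genes. With Flt3, Ly6c2 gave -0.39, Lyz2 -0.37, F13a1 -0.27 and Ccr2 0.07. With H2-Ab1, Ly6c2 gave -0.30, Lyz2 -0.15, F13a1 0.05 and Ccr2 0.31, and Ms4a6c gave 0.49. The median over pairs was 0.44 among the 4 classical genes, 0.19 among the 4 nonclassical genes and 0.07 between them. With such sparse signal the lower values carry little information.

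**Figure D3:**
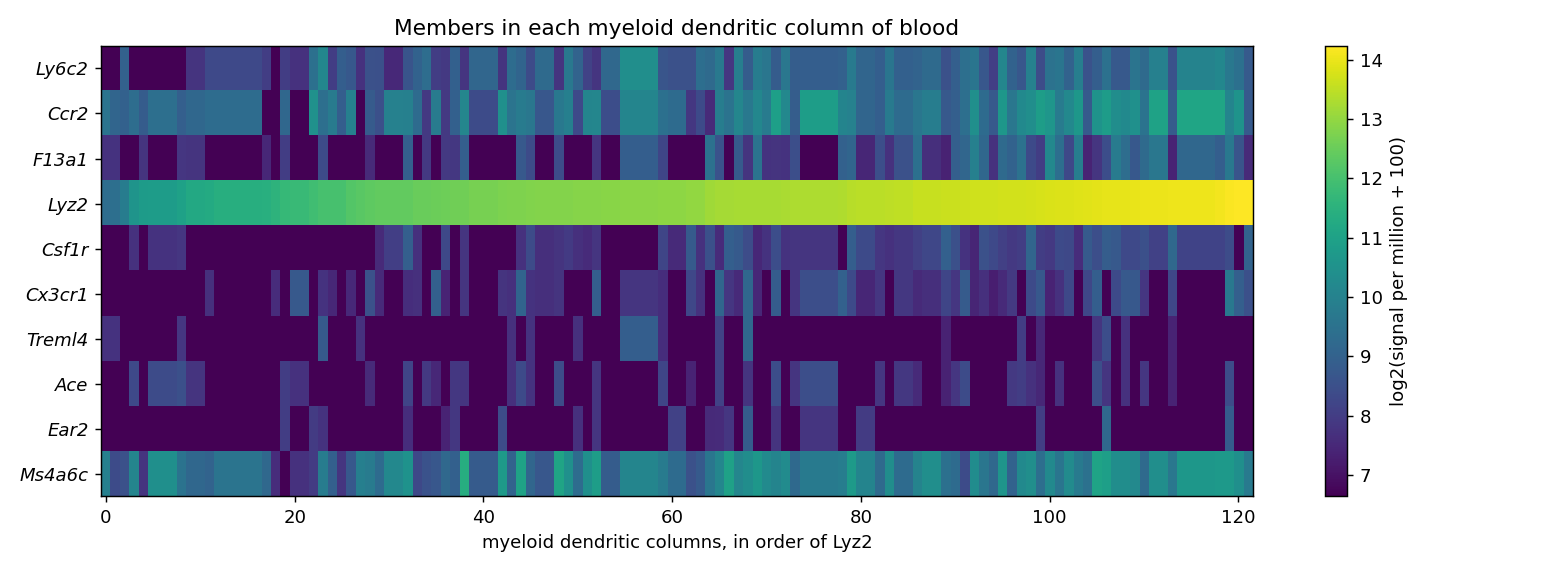
Each of the 122 myeloid dendritic columns of blood is a vertical strip, ordered by Lyz2 (x axis), and the rows are the members; colour is log2(SPM + 100). Ccr2, Lyz2 and Ms4a6c are filled in nearly every column, and Treml4 in 22 and Ear2 in 25 scattered columns.

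By mouse, myeloid dendritic columns numbered 24, 17, 21, 3 and 51 in arthritic mice 1, 3, 4, 5 and 6, and 4, 1, 0 and 1 in healthy mice 1 to 4. Ccr2 pooled by mouse was at 886, 837, 553, 742 and 828 SPM in the arthritic mice, and at 1065, 909 and 356 in healthy mice 1, 2 and 4. Ly6c2 was at 372, 432, 265, 409.6 and 559, and at 312, 82.6 and 267. The healthy values rest on 1 to 4 columns, and 3 of the 6 healthy columns (2 of mouse 1 and the 1 of mouse 2) had an exact copy under an arthritic mouse, so no comparison of conditions was made in this class.

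In arthritic against healthy mice, none of the members passed the test (adjusted p under 0.05, limma on log2(SPM + 1) of sums per mouse, TMM scaling, Benjamini-Hochberg adjustment over all genes tested). Over all blood columns 9 members were tested, Treml4 being below the filter of 10 SPM, and 0 were called, where 0.0473% of the 8459 genes tested were called. Values in these fits are TMM-scaled and so differ from the class levels above.

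Ly6c2 over all blood columns was at 174, 53.9, 143 and 203 scaled SPM in healthy mice 1 to 4, and at 349, 262, 302, 424 and 232 in arthritic mice 1, 3, 4, 5 and 6. Every arthritic value was above every healthy one, as for 3.64% of all genes tested, and this held on SPM without TMM (at most 220.3 in healthy and at least 236 in arthritic mice). The log2 difference was 1.25 ± 0.36 (SE; limma adjusted p = 0.227), where the median of all genes was 0.26. Lyz2 differed by 1.42 ± 0.56 (limma adjusted p = 0.342), with overlapping groups. Ccr2 differed by 0.20 ± 0.51, Csf1r by 0.15 ± 0.50, Ms4a6c by 0.26 ± 0.51, F13a1 by 0.48 ± 0.60, Ear2 by 0.83 ± 0.65, Cx3cr1 by -0.10 ± 0.68 and Ace by -0.56 ± 0.59.

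The granulocyte columns gave the nearest approach to a call. Ly6c2 was at 320, 208, 237 and 259 scaled SPM in healthy mice 1 to 4, and at 660.5, 743, 444, 409 and 527 in arthritic mice 1, 3, 4, 5 and 6. On this scale the groups did not overlap, as for 8.65% of the 7935 genes tested; on SPM without TMM they did, with healthy mice from 185 to 409.6 and arthritic mice from 253 to 787. The log2 difference was 1.10 ± 0.23 (SE; limma adjusted p = 0.0532), with 0.655% of genes called. The median of all genes was 0.53 in this fit.

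Lyz2 in granulocyte columns was at 8270, 7938, 6073 and 4032 in healthy mice and at 14857, 15473, 9495, 8431 and 12425 in arthritic mice, without overlap on this scale, and differed by 0.90 ± 0.39 (limma adjusted p = 0.215). On SPM without TMM the groups overlapped for Lyz2 too, with healthy mice from 3354 to 10835 and arthritic mice from 5225 to 17158. Ccr2 was at 524, 219.8, 272 and 255 in healthy mice and at 209, 228, 289.8, 134 and 786 in arthritic mice, where mouse 6 stood alone, and differed by -0.14 ± 0.45. Ms4a6c (-0.08 ± 0.39), F13a1 (0.01 ± 0.41), Csf1r (-0.42 ± 0.45), Cx3cr1 (-0.20 ± 0.60), Ace (-0.17 ± 1.03) and Ear2 (0.16 ± 0.40) overlapped between groups.

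Neutrophil and erythroid markers were also compared between the groups in these columns, and the ranges of their sums overlapped. The 15 neutrophil markers summed to 14030 to 131986 SPM in the granulocyte columns of healthy mice and to 64802 to 332685 in those of arthritic mice, and the 8 erythroid markers to 216349 to 531738 and 7290 to 501402; none of these markers was at 0 in the class. In the fit, 15 of the 15 neutrophil markers had a positive difference and 8 of the 8 erythroid markers a negative one. The median differences were 2.56 for the neutrophil and -2.14 for the erythroid markers, where that of all genes was 0.53. The part of these markers in the differences of Ly6c2 and Lyz2 was not tested. With the columns at or above 400 Ms4a6c left out, an alternative chosen after seeing the data, Ly6c2 differed by 1.82 (limma adjusted p = 5.8e-04) and Lyz2 by 1.96 (limma adjusted p = 0.043), while the median of all genes was 1.15 and 1042 genes were called. Of 338 granulocyte columns identical to a column of another mouse, 15 were among the 49 healthy ones; without such columns Ly6c2 differed by 1.24 (limma adjusted p = 0.0367), and with 1 of each set of identical columns by 1.28 (limma adjusted p = 0.0282). Without any 1 of the 4 healthy mice, or without arthritic mouse 6, Ly6c2 passed the threshold (limma adjusted p from 0.0122 to 0.0391). It also passed without the filter (limma adjusted p = 0.0139), where Lyz2 passed too (0.0366), with a pseudocount of 10 (0.0327) and as a mean over columns (0.0305). Ly6c2 did not pass without arthritic mouse 1, 3, 4 or 5 (limma adjusted p up to 0.147). Nor did it pass with median-of-ratios factors, scaling by total signal, a pseudocount of 0.1, array weights or the replicate block. With hemoglobin, mitochondrial and ribosomal RNA genes left out of the total Ly6c2 differed by 0.59 (limma adjusted p = 0.473). For Ly6c2, limma adjusted p-values ran from 5.8e-04 to 0.473 over the alternatives.

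Outside the granulocyte class 8 members were tested (Treml4 and Ear2 were below the filter) and 0 were called, with 0% of 8763 genes called and 1193 genes (13.6%) at an unadjusted p under 0.05; limma was the only tool run. Ly6c2 differed by 0.60 ± 0.29 (SE; limma adjusted p = 0.353) and Lyz2 by 0.04 ± 0.56. The difference of the arthritic effect between granulocyte and other columns was tested itself: for Ly6c2 it was 0.49 ± 0.41 (limma adjusted p = 0.628), for Lyz2 0.86 ± 0.78 (limma adjusted p = 0.661), and 0 of 8 members were called, with 0.0698% of 7167 genes called.

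**Figure D4:**
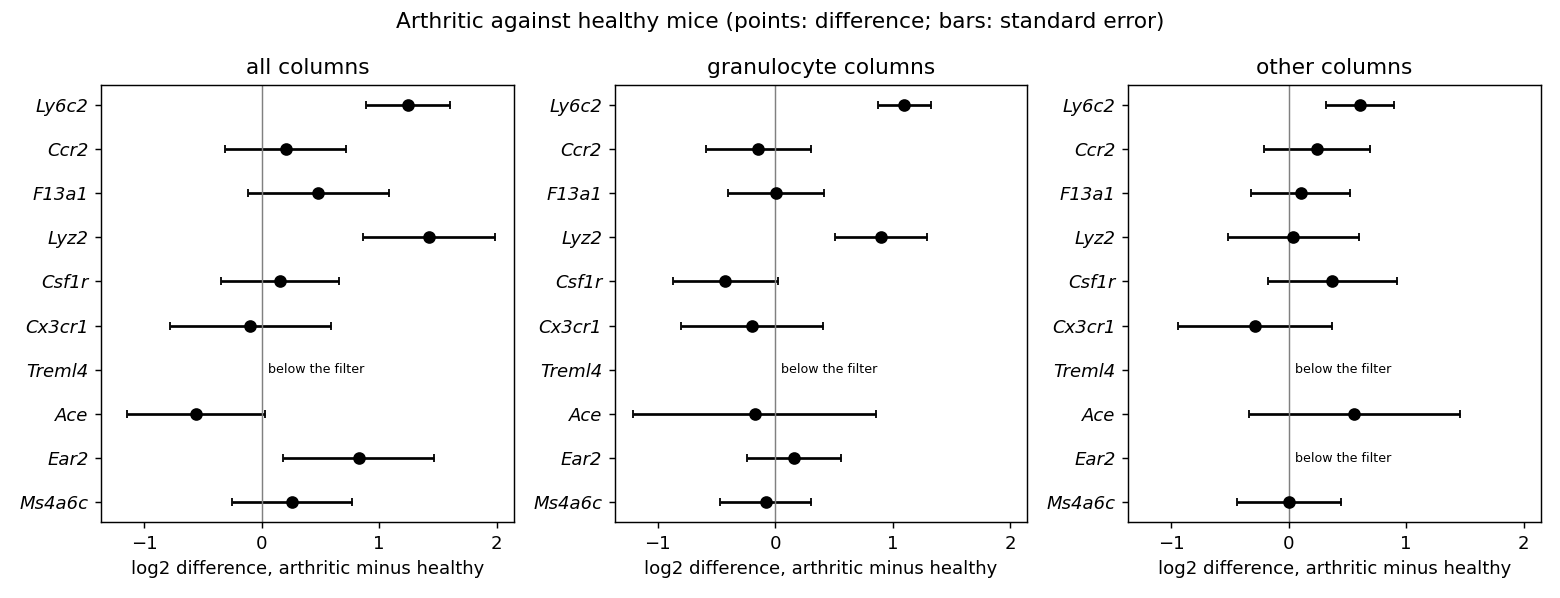
Log2 difference between 5 arthritic and 4 healthy mice (x axis; points are differences, bars standard errors) for each member in all, granulocyte and other columns; members below the filter are marked. Ly6c2 lies to the right in each panel (1.25, 1.10 and 0.60), and no member passed the test.

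The wider lists give the context. Among genes listed for classical monocytes, 13 of 14 were tested in granulocyte columns and 0 were called, 6 with an unadjusted p under 0.05 and a positive difference, as for 19.3% of all genes tested (21.6% in either direction); their median difference was 0.25 and that of all genes 0.53. Among those listed for nonclassical monocytes, 14 of 17 were tested and 0 called, with 0 at an unadjusted p under 0.05 and a median of -0.11. Chil3, a chitinase-like protein of neutrophil precursors and monocytes, differed by 2.47 ± 0.65 (limma adjusted p = 0.0955). Of the 16 paralogs listed, 11 were tested and 1 rose, Trem1, an activating receptor of myeloid cells (1.53 ± 0.25, limma adjusted p = 0.0342). Ly6c1, which shares windows with Ly6c2, differed by 0.93 ± 0.24 (limma adjusted p = 0.0943). Of the receptor and ligand genes of the members' axes, 10 of 17 were tested and 0 called, as were 13 of 16 monocyte transcription factors.

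In the joint table the macrophage class, which the authors named for bone marrow macrophages treated with LPS, had the highest level of Lyz2, Csf1r and F13a1. Lyz2 was at 73508 SPM in these 67 columns, Csf1r at 191 and F13a1 at 473, with Ccr2 at 709 and Ms4a6c at 611. Treml4 and Ear2 were listed at 0 and Ace at 1.19, a total of 1 signal. The complement gene C1qb, a macrophage marker, was at 3428 there and Fn1 at 1945. The number of members highest in the 19 joint myeloid dendritic columns was 6, with Ccr2 at 901, Ms4a6c at 1149, Cx3cr1 at 168, Ace at 162, Ear2 at 68.3 and Treml4 at 24.8, the last from 4 signal in all. Ly6c2 was highest in joint granulocyte columns (580). Of the 8399 joint columns used, 3836 were identical to another. Among the 67 macrophage columns 40 were distinct, and among the 19 myeloid dendritic columns 15. Over the distinct macrophage columns Lyz2 was at 70898, Csf1r at 192 and F13a1 at 493. The joint columns match no sample here, and no test was made between joint and blood.

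**Figure D5:**
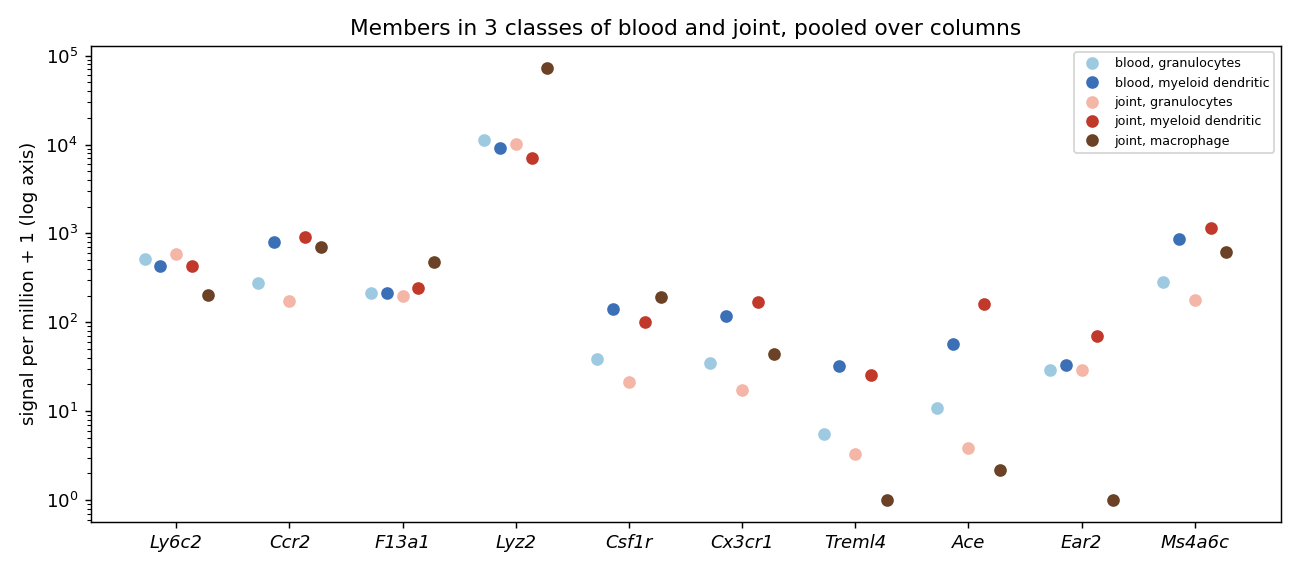
SPM + 1 (y axis, log scale) of each member in granulocyte and myeloid dendritic columns of blood and joint and in joint macrophage columns, pooled over columns with no replicates. Lyz2 is highest in joint macrophage columns (73508), where Treml4 and Ear2 are listed at 0.

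The genes whose levels were most like those of members were sought over 38 class-and-mouse profiles of blood among 7426 genes with the members left out, by Pearson r of log2(SPM + 1). Between members, Ccr2 with Csf1r gave 0.90 and Lyz2 with Ms4a6c 0.89. For Ccr2 these were Cebpb (0.92), Ifi202b (0.90), Ptpre (0.89), Ccdc88a (0.87) and Ccl9 (0.87), and for Csf1r Fn1 (0.88), Ccdc88a (0.87), Fcer1g (0.86), Plxnd1 (0.86) and Wfdc17 (0.85). For Lyz2 they were Tyrobp (0.96), Lyz1 (0.96), Lgals3 (0.95), Fcer1g (0.95) and Ifitm6 (0.93). Treml4, with less signal, had lower values: Grk3 (0.75), Rab32 (0.73), Havcr2 (0.72), Map7d1 (0.71) and Ifi207 (0.71). The profiles share classes and mice, and Lyz1 shares windows with Lyz2.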

How the data were processed

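Blood of 4 healthy and 5 arthritic mice was profiled by Seq-Well; per the labels' protocols, read 1 held the barcode, read 2 the transcript from the polyA tail, and the Drop-seq core protocol was used. The build was GRCm38.p5 per the submitters' processing notes; aligner, cell filter and naming of classes: not given in the sources used here. Values as deposited by the authors are whole-number signal per gene and column, not scaled by the authors as far as column totals show; they were handled as signal, with no count model. Of the joint columns, 24 in 2 small classes were not used. No doublet caller was run.

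Signal was summed per mouse, scaled by TMM (own code), filtered at 10 SPM (signal per 1000000) in at least 4 mice, and tested with limma 3.58.1 on log2(value + 1), a scale that understates the change of low genes; the code was tested on simulated data. Shared mouse numbers (1, 3 and 4) did not pair the mice. Named genes were the 10 members, the 5 genes most like each of Ccr2, Csf1r, Treml4 and Lyz2, and up to 2 list genes with the smallest p per fit; Ly6c1 was named because it shares windows with Ly6c2, and others in the descriptions of columns were chosen after their values were seen. Members and lists were chosen with earlier results of these data known. Alternatives covered scaling, filter, pseudocount, weights, block, identical columns, column weighting and leaving out each mouse.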

Additional observations from a re-analysis of the deposited data

Results flagged for a closer look

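In 60 groups of 4 or 5 mice, 4 held a value far from the others by Dixon's gap test at the 95% level, where chance flags about 1 in 20 groups. Arthritic mouse 6 was the high value in 3 of them, all in granulocyte columns and on the TMM-scaled SPM: Ccr2 at 786 (next 290), Ms4a6c at 776 (next 285) and Ace at 32.5 (next 12.2). In that mouse 74.7% of granulocyte columns had Ms4a6c at or above 400 SPM. Over all blood columns, healthy mouse 2 was low for Csf1r at 6.92 (next 31.2), and 2.49% of its columns were granulocyte columns.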

How the results depend on the processing

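None of the members was called in any comparison, so a change of sign concerns differences that passed no threshold. Of 601 recomputed member values, 469 kept direction and call, 119 changed sign, and 13, all for Ly6c2 or Lyz2 in granulocyte columns, passed the threshold. The number of genes called moved widely. Over all blood columns it was 4, and 19 with scaling by total signal, 0 without the filter, 2 with a pseudocount of 0.1, 0 with array weights, 35 with the replicate block, and 0 to 64 without 1 mouse (64 without arthritic mouse 6). In granulocyte columns it was 52, and 5 with median-of-ratios factors, 2 after scaling by total signal, 2801 without the filter, 216 and 18 with pseudocounts of 10 and 0.1, 283 with array weights, 82 with the replicate block, 136 with 1 of each set of identical columns, 282 without columns identical to another mouse's, 113 as a mean over columns, 1042 without columns at or above 400 Ms4a6c, and 0 to 883 without 1 mouse (0 without arthritic mouse 1, 3 or 5, 883 without healthy mouse 2). Outside granulocytes it was 0, and 0 to 4 without 1 mouse (4 without healthy mouse 2). For the difference between the effects it was 5, and 2 with scaling by total signal, 0 with a pseudocount of 10, and 0 to 105 without 1 mouse. The cause was not tested. The correlations of same-numbered mice were -0.0041, -0.29 and 0.30, so the replicate block uses a shared number only.

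Log2 differences that changed sign over all blood columns were Ccr2 -0.20, Csf1r -0.12 and Ms4a6c -0.044 with array weights; Ccr2 -0.58, F13a1 -0.45, Csf1r -0.63, Ear2 -0.19 and Ms4a6c -0.58 with the replicate block; Cx3cr1 0.046 as a mean over columns; and Ccr2 -0.20, Csf1r -0.24 and Ms4a6c -0.15 with hemoglobin, mitochondrial and ribosomal RNA genes left out of the total, which moved the median of all genes from 0.26 to -0.11. In granulocyte columns they were F13a1 -0.16 and Ear2 -0.0033 with median-of-ratios factors, F13a1 -0.073 after scaling by total signal, -0.036 with array weights and -0.25 with the replicate block, Ace 0.53 with a pseudocount of 0.1, Ccr2 0.14, Cx3cr1 0.063, Ace 0.13 and Ms4a6c 0.24 with 1 of each set of identical columns, F13a1 -0.20, Ace 0.14 and Ms4a6c 0.078 without columns identical to another mouse's, Ccr2 0.0043, Cx3cr1 0.010, Ace 0.42 and Ms4a6c 0.11 as a mean over columns, F13a1 -0.50 and Ear2 -0.33 with those RNA genes left out, and Cx3cr1 0.18 without columns at or above 400 Ms4a6c. Outside granulocytes they were F13a1 -0.0080 and Lyz2 -0.072 with median-of-ratios factors, Ms4a6c 0.22 with scaling by total signal and 0.0018 with a pseudocount of 0.1, Ccr2 -0.26, Lyz2 -0.053 and Ace -0.29 with array weights, Ccr2 -0.24, F13a1 -0.30, Lyz2 -0.94 and Csf1r -0.40 with the replicate block, Ccr2 -0.0037, F13a1 -0.014 and Lyz2 -0.074 with 1 of each set of identical columns, Ccr2 -0.092, F13a1 -0.22 and Lyz2 -0.20 without columns identical to another mouse's, Ms4a6c 0.055 as a mean over columns, and Ccr2 -0.19, F13a1 -0.32, Lyz2 -0.39 and Csf1r -0.028 with those RNA genes left out. The difference between the effects was -0.19 for Cx3cr1 with scaling by total signal.

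Leaving out 1 mouse gave, over all blood columns, ranges of -0.37 to 0.61 for Ccr2, -0.40 to 0.35 for Csf1r, -0.89 to 0.21 for Cx3cr1, -0.35 to 0.88 for F13a1 and -0.38 to 0.56 for Ms4a6c. In granulocyte columns they were -1.14 to 0.54 for Ace, -0.42 to 0.25 for Ccr2, -0.51 to 0.15 for Cx3cr1, -0.15 to 0.40 for F13a1 and -0.33 to 0.29 for Ms4a6c. Outside granulocytes they were -0.17 to 0.97 for Ace, -0.039 to 0.72 for Ccr2, -0.95 to 0.024 for Cx3cr1, -0.32 to 0.34 for F13a1, -0.60 to 0.43 for Lyz2 and -0.47 to 0.31 for Ms4a6c. For the difference between the effects they were -1.66 to 0.72 for Ace, -0.054 to 0.44 for Cx3cr1, -0.29 to 0.29 for F13a1 and -0.25 to 0.51 for Ms4a6c. The number of members highest in the myeloid dendritic class was 7 in blood and 6 in joint under each way of pooling columns, and 6 in blood by the mean of mice, where Ear2 was as high in granulocyte columns. Over myeloid dendritic columns the correlation of Ccr2 with Ms4a6c was 0.61 over all 122 and 0.45 with each column thinned to 5000 signal. Of the 20 genes most like the members, 8 were also chosen by Spearman's rho.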
